A study of Mus with 4 samples.

Results

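Txnip, the thioredoxin-interacting protein, was examined together with its close relatives and partners: the alpha-arrestins Arrdc1, Arrdc2, Arrdc3 and Arrdc4, the thioredoxins Txn1 and Txn2, and Mlxip and Mlxipl, which encode the glucose-sensing transcription factors MondoA and ChREBP. These 9 genes, read by 16 probe sets, were taken from 18193 genes with a single symbol in the platform annotation, and every probe set annotated to 1 of the 9 symbols alone was kept. The group was chosen by values of this same comparison, since the change of Txnip between vorinostat and DMSO was already known when it was put together. The members' values are therefore given as a description, with no test, and the calls of the linear model are counted for them only beside the share of all genes called.

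The samples were 2 arrays of PPS-ICBR cells treated overnight with vorinostat at 5 µM in DMSO, named Vorinostat 1 and Vorinostat 2, and 2 arrays of the same cells given DMSO alone, 5 µL in 10 mL of medium, named DMSO 1 and DMSO 2. PPS-ICBR is labelled as a prostate cancer line of the C57Bl6 mouse strain, grown in DMEM with serum and antibiotics, and all 4 arrays come from this 1 line. Vorinostat inhibits histone deacetylases, the enzymes that remove acetyl groups from histones and other proteins. Whether Vorinostat 1 and Vorinostat 2, or DMSO 1 and DMSO 2, stem from separate cultures is not stated, and the spread behind every p-value may therefore be technical.

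Alpha-arrestins are adaptor proteins that bring ubiquitin ligases of the NEDD4 family to membrane proteins and so steer their removal from the cell surface. Txnip is the member of that family that also binds reduced thioredoxin and holds back its disulfide-reducing activity, and it lowers glucose uptake by promoting the internalisation of glucose transporters. Its transcription, like that of Arrdc4, is driven by MondoA or ChREBP, each paired with Mlx, when glucose phosphates accumulate, and its transcript is known to increase in several tumour cell lines given deacetylase inhibitors.

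Values are the deposited log2 expression values. They are compared within a probe set and never between probe sets, whose levels are not on a common scale. In the line as labelled, the luminal keratins Krt8 (11.11 and 11.40 with vorinostat, 12.25 and 12.36 with DMSO) and Krt18 (11.37 and 11.48 with vorinostat, 11.51 and 11.48 with DMSO) and the prostate homeobox gene Hoxb13 (8.75 and 8.82 with vorinostat, 8.24 and 8.24 with DMSO) were bright, whereas the secretory gene Pbsn was near background on all 4 arrays. Near background means within 1 log2 unit of the brightest of 3 bacterial Trpn control probe sets, that is at or under 3.78 and 3.63 on the vorinostat arrays and 3.54 and 3.75 on the DMSO arrays. Of the other cell types checked, 3 of 5 immune and 2 of 4 endothelial markers were near background on every array, Ptprc and Pecam1 among them. The endothelial markers Kdr and Cdh5 were above background on all 4 arrays. So were the 3 prostate basal markers, with log2 changes of 0.23 for Krt14, 0.09 for Krt5 and 0.05 for Trp63. No endothelial or basal marker was called. Epcam, the remaining luminal marker, read 7.68 and 7.65 with vorinostat and 7.89 and 7.93 with DMSO and was not called. The summed linear signal of the 5 luminal markers was 5498 and 6201 on the vorinostat arrays and 8332 and 8657 on the DMSO arrays. Such a sum adds probe sets that are not on a common scale, so the brightest, here Krt8 and Krt18, weigh most. It does not describe the markers as a set, since Krt8 (-1.05) was the only luminal marker called lower and Hoxb13 (0.54) was called higher. The immune marker Cd3e, above background on all 4 arrays, rose by 0.43 (SE 0.09, adjusted p = 0.0158 by limma). The other 4 immune markers were not called, at 0.08 for Ptprc and Cd79a, -0.06 for Adgre1 and -0.17 for Itgam. The median of the immune markers was 0.08. Of 5 fibroblast markers Col1a2 was bright in both groups, and Pdgfra (log2 change 1.54, SE 0.09) and Dcn (1.26, SE 0.10) rose with adjusted p = 0.000321 and 0.000801 by limma. The other 3 did not pass, with -0.31 for Col1a1, -0.21 for Col1a2 and -0.15 for Lum, which was near background on all arrays, and the median of the 5 was -0.15. Their summed linear signal, in which Col1a2 weighs most, was 6894 and 7656 on the vorinostat arrays and 7275 and 7303 on the DMSO arrays. The part of these markers in the results below was not tested. Fewer cells and less RNA per cell cannot be told apart in such bulk samples.

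Txnip differed more between the groups than any other member. Its brighter probe set (1415996_at) read 10.92 and 10.82 on the vorinostat arrays and 6.52 and 6.29 on the DMSO arrays. Its other probe set (1415997_at) read 10.44 and 10.33 with vorinostat and 6.01 and 6.04 with DMSO. The 2 groups lay far apart on both probe sets, with 4.30 and 4.29 log2 units between the lower vorinostat array and the higher DMSO array, while arrays of the same group lay close together. The group means were 10.87 ± 0.07 with vorinostat and 6.41 ± 0.16 with DMSO for the brighter probe set (SD, n = 2), a log2 change of 4.47 (SE 0.11, 22.1-fold), and the other probe set gave 4.36 (SE 0.08, 20.6-fold). Every log2 change here is vorinostat minus DMSO. All 4 arrays were above background for both probe sets, so these folds need no lower bound. Among the 18193 genes, each represented by its brightest probe set, Txnip had the 8th largest rise, and 0.0385% of genes had a larger change in either direction. The change stayed between 4.35 and 4.58 when any 1 of the 4 arrays was left out.

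**Figure D1:**
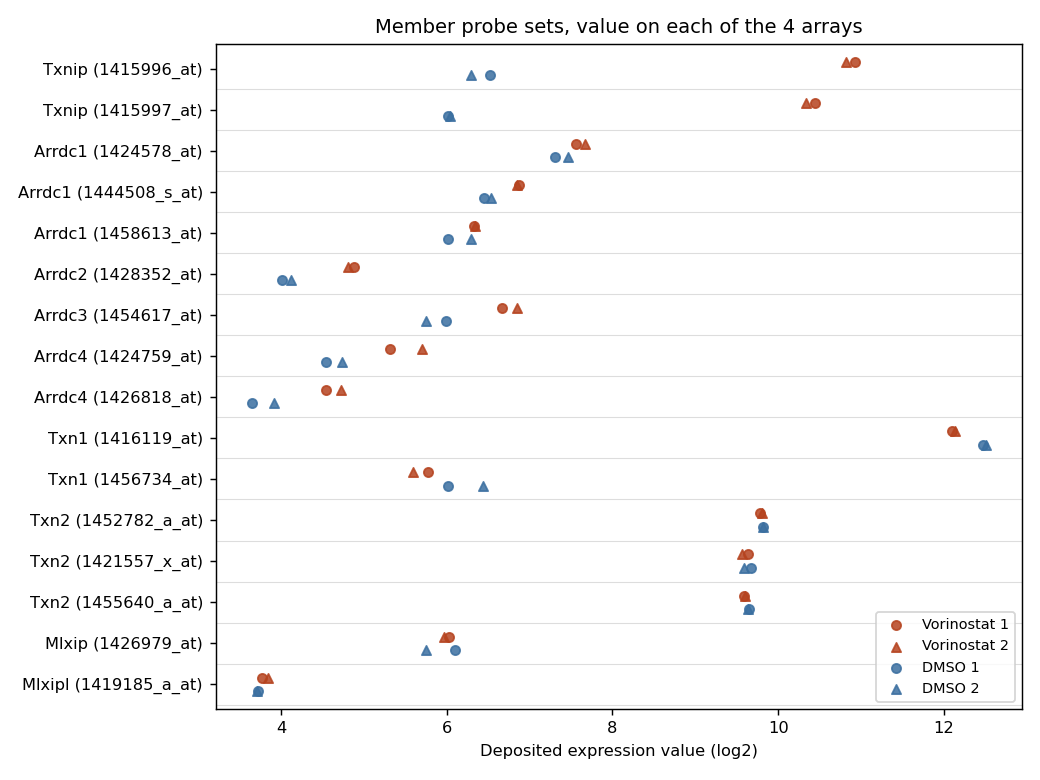
Deposited log2 value (x axis) of each of the 16 member probe sets (rows) on the 2 vorinostat arrays and the 2 DMSO arrays, with 1 point per array. The vorinostat points of Txnip lie between 10.33 and 10.92 and its DMSO points between 6.01 and 6.52, a separation that no other row shows.

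The alpha-arrestins Arrdc2, Arrdc3 and Arrdc4 were also higher with vorinostat, but by less than 2-fold on the deposited scale. Arrdc3, an adaptor that promotes the ubiquitination of the beta-2 adrenergic receptor, read 6.67 and 6.85 on the vorinostat arrays and 5.99 and 5.75 on the DMSO arrays. Its log2 change was 0.89 (SE 0.12, 1.85-fold), and both vorinostat arrays lay above both DMSO arrays. Arrdc4, the closest relative of Txnip in its glucose-dependent control, read 5.32 and 5.70 with vorinostat and 4.54 and 4.74 with DMSO at its brighter probe set (1424759_at). Its dimmer probe set (1426818_at) read 4.54 and 4.73 with vorinostat and 3.65 and 3.92 with DMSO. The probe sets of Arrdc4 gave much the same change, 0.87 (SE 0.15, 1.83-fold) and 0.85 (SE 0.13, 1.80-fold), and on each of them the groups did not overlap. Arrdc2 read 4.88 and 4.80 with vorinostat and 4.01 and 4.11 with DMSO, a log2 change of 0.78 (SE 0.09, 1.72-fold) with groups that did not overlap. Of all genes, 14.5%, 14.9% and 17.5% had larger absolute changes than Arrdc3, Arrdc4 and Arrdc2.

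Arrdc1, which drives the budding of small vesicles from the plasma membrane, was the alpha-arrestin that differed least. Its brightest probe set (1424578_at) read 7.56 and 7.66 on the vorinostat arrays and 7.30 and 7.46 on the DMSO arrays, a log2 change of 0.23 (SE 0.09, 1.17-fold). A probe set of the type that can match several transcripts (1444508_s_at) read 6.87 and 6.85 with vorinostat and 6.45 and 6.54 with DMSO, a change of 0.37 (SE 0.08). The last one (1458613_at) read 6.33 and 6.34 with vorinostat and 6.02 and 6.29 with DMSO, a change of 0.18 (SE 0.11). The groups did not overlap at any of the 3 Arrdc1 probe sets, but the nearest arrays of the 2 groups were only 0.10, 0.31 and 0.03 log2 units apart. Of all genes, 51.4% had a larger absolute change than the brightest Arrdc1 probe set. The call of 1444508_s_at was lost with any 1 array left out.

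The cytosolic and mitochondrial thioredoxins, the small proteins whose reduced form Txnip binds, did not share the direction of Txnip. Txn1, the cytosolic form, was lower with vorinostat at both probe sets. The bright one (1416119_at) read 12.10 and 12.13 on the vorinostat arrays and 12.47 and 12.51 on the DMSO arrays, a log2 change of -0.37 (SE 0.08, 1.29-fold higher in DMSO). The dim one (1456734_at) read 5.78 and 5.59 with vorinostat and 6.01 and 6.44 with DMSO, a change of -0.54 (SE 0.16). The groups did not overlap at either. This lower reading depended on the scaling. With arrays scaled on 7 reference genes the change was -0.0062 at the bright probe set and -0.18 at the dim one, and neither was called. With arrays centred on their median the changes were -0.43 and -0.60. Txn2, the mitochondrial form, read 9.78 and 9.80 on the vorinostat arrays and 9.81 and 9.82 on the DMSO arrays at its brightest probe set (1452782_a_at). Its log2 change was -0.03 (SE 0.08), the others gave -0.03 and -0.05, and 91.9% of all genes had a larger absolute change.

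The transcripts of the glucose-sensing activators differed little on the deposited scale. Mlxip, which encodes MondoA, read 6.02 and 5.97 on the vorinostat arrays and 6.10 and 5.75 on the DMSO arrays, and the groups overlapped. Its log2 change was 0.07 (SE 0.13), and it was -0.10 without DMSO 2 and 0.25 without DMSO 1. Mlxipl, which encodes ChREBP, read 3.77 and 3.84 with vorinostat and 3.72 and 3.71 with DMSO, a change of 0.09 (SE 0.08). Of its arrays, 1 in each group was near background, so the reading says little about this transcript. Neither value bears on the activity of these factors, which is set largely by their entry into the nucleus.

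**Figure D2:**
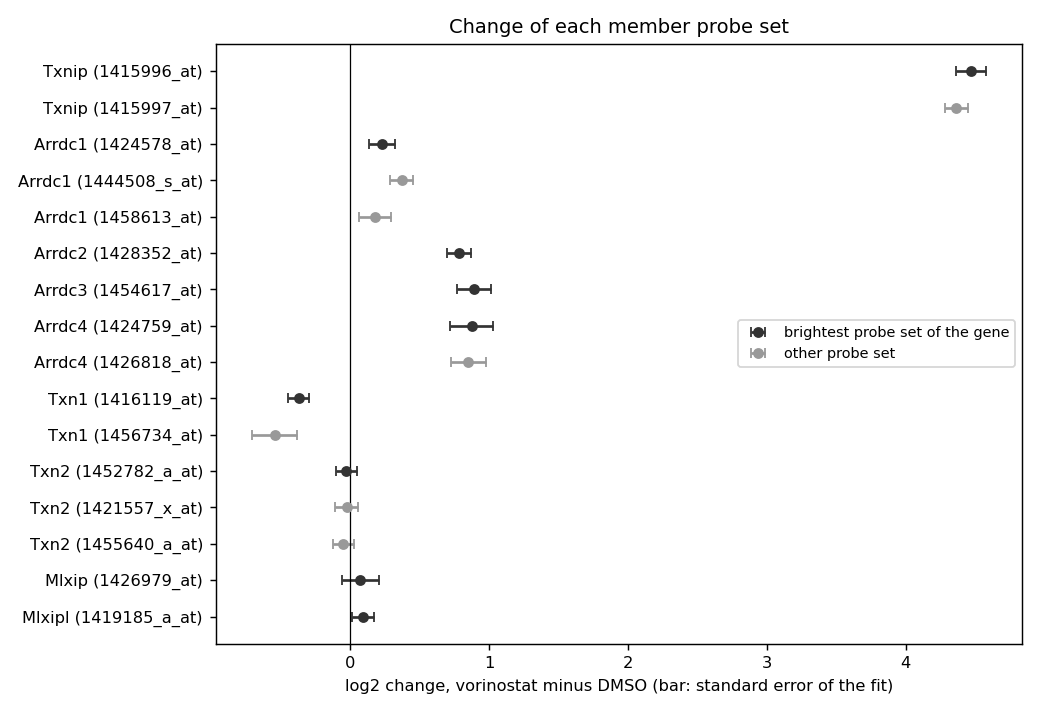
The log2 change (x axis, vorinostat minus DMSO) of each member probe set (rows), with bars for the standard error of the linear model over 2 arrays per group; dark points are the brightest probe set of each gene. The probe sets of Txnip stand at 4.47 and 4.36, those of Arrdc2, Arrdc3 and Arrdc4 between 0.78 and 0.89, those of Arrdc1 between 0.18 and 0.37, and those of Txn1 at -0.37 and -0.54.

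Counted by their brightest probe sets, 4 of the 9 genes were called higher in the linear model (Txnip, Arrdc2, Arrdc3 and Arrdc4), beside 20.9% of all genes, and 1 was called lower (Txn1), beside 18.9% of all genes. By probe set, 7 of 16 were called higher, beside 16.5% of all probe sets, and 1 lower, beside 15.7%. Both vorinostat arrays lay above both DMSO arrays for 6 member genes, beside 37.3% of all genes, and below them for 2, beside 31.6%. For probe sets these numbers were 10 and 4 of 16, beside 33.1% and 29.7%. The median log2 change was 0.23 over the 9 genes and 0.03 over all genes, and 1 of the 9 genes (Txnip) differed by at least 2-fold on the deposited scale, where 11.9% of all genes did. Nothing about the group is read from these counts, since the same contrast had a part in choosing it.

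**Figure D3:**
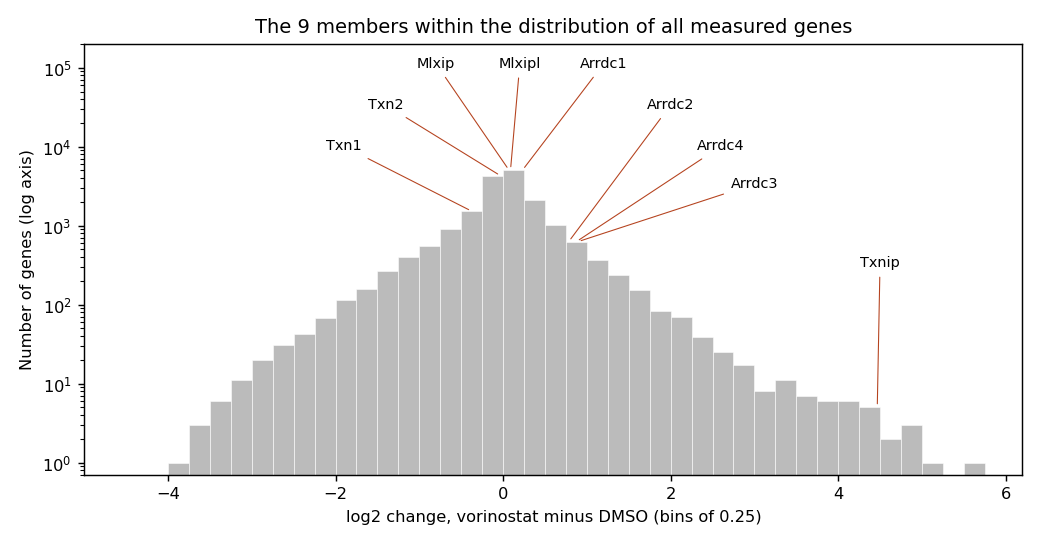
Histogram of the log2 change (x axis, vorinostat minus DMSO, bins of 0.25) of 18193 genes, each by its brightest probe set, with the number of genes on a log axis and the 9 members marked in their bins. Txnip lies in the sparse right tail at 4.47, and the other 8 members lie between -0.37 and 0.89.

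A scaling adds the same amount to every change, so it moves the members' place relative to 0 and not their order. Scaling each array on 7 reference genes, whose mean change on the deposited scale was -0.37, moved the median of all genes to 0.39. Under it 62.3% of all genes were called higher and 11.3% lower, and so were 8 and 0 of the 9 members. Txnip then stood at 4.83, Arrdc3, Arrdc4 and Arrdc2 at 1.26, 1.24 and 1.15, Arrdc1 at 0.60, Mlxipl at 0.45, Mlxip at 0.44, Txn2 at 0.34 and Txn1 at -0.0062. The reference mean leaned most on Gusb, with a change of -1.42. Of the 7 reference genes, 2 were themselves called lower, Gusb and Polr2a (-0.75), and 0 were called higher. Arrdc2 and Arrdc3 stayed called with any 1 array left out, where 3 arrays leave fewer residual degrees of freedom. Arrdc4 (1424759_at) was not called without Vorinostat 2 (0.68), DMSO 1 (0.77) or DMSO 2 (0.97). Txn1 (1416119_at) was not called when any 1 array was left out, although its change stayed between -0.39 and -0.36.

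**Figure D4:**
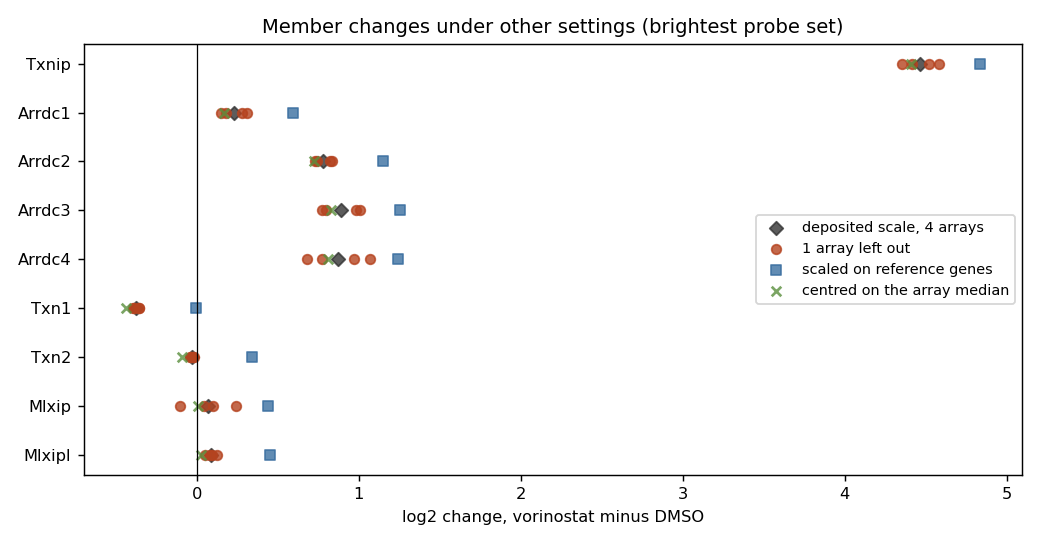
The log2 change (x axis, vorinostat minus DMSO) of the brightest probe set of each member gene (rows) on the deposited scale with all 4 arrays, with each array left out in turn, after scaling on the reference genes and after centring each array on its median. Txnip ranges from 4.35 to 4.83, the reference scaling lies to the right in every row, and Txn1 reaches -0.0062 under it.

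The genes nearest to Txnip were sought by the Euclidean distance between the 4 log2 values of a gene, each gene centred on its own mean, over 16004 protein-coding genes with a standard name. Since 4 arrays in 2 groups hold little more than 1 difference, this names genes with a change of like size and is a description only. The nearest was Atf3, a stress-induced transcription factor, at a distance of 0.245, with 10.15 and 9.96 on the vorinostat arrays and 5.98 and 5.64 on the DMSO arrays. It was followed by the mitochondrial arginase Arg2 (0.258), the cornified-envelope gene Sprr1b (0.305), the serpin Serpini1 (0.330) and the lysosomal glycoprotein Cd68 (0.335). Arg2 was near background on both DMSO arrays, so its log2 change is given as at least 3.34, and its other probe set gave 3.21. Serpini1 changed by 4.37 at its brightest probe set. Its others gave 4.74 and 0.08, and each of them was near background in the DMSO group, so their sizes are uncertain. Atf3, Sprr1b and Cd68 changed by 4.24, 4.22 and 4.65.

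The other genes of the pathway were followed in 6 lists that hold 83 genes, 78 of them measured by a probe set with a single symbol. These genes were listed by their known roles, with earlier results of these data known, so their tests are not independent of the data. They were tested by limma with adjustment over all 45037 probe sets. In all, 25 rose and 21 fell, and 32 did not pass the threshold of 0.05. Each list's counts stand beside the same 20.9% and 18.9% of all genes that were called higher and lower.

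The thioredoxin and peroxiredoxin system, which passes electrons from NADPH to thioredoxin and on to peroxides and oxidised proteins, moved in both directions. Of 12 genes measured of 15 listed, 3 rose and 4 fell, with a median log2 change of -0.05. The cytosolic glutaredoxin Glrx, which removes glutathione from proteins, read 8.97 and 8.89 on the vorinostat arrays and 7.52 and 7.33 on the DMSO arrays, and rose by 1.51 (SE 0.10, adjusted p = 0.000433 by limma). The mitochondrial glutaredoxin Glrx2 rose by 0.76 (SE 0.08, adjusted p = 0.00148). The methionine sulfoxide reductase Msra, which depends on thioredoxin, read 4.65 and 4.41 with vorinostat and 6.33 and 6.63 with DMSO, a log2 change of -1.96 (SE 0.14, adjusted p = 0.000553 by limma). The mitochondrial thioredoxin reductase Txnrd2 fell, with a change of -0.67 (SE 0.16, adjusted p = 0.0254), and its other probe sets gave -1.48, -0.81 and -0.01. The cytosolic reductase Txnrd1, named after its value was seen, was at -0.28 (SE 0.08, adjusted p = 0.0447) but at 0.083 under reference-gene scaling. The calls that remain in the list were Prdx2, a peroxiredoxin of the cytosol (0.42), and Srxn1, which repairs overoxidised peroxiredoxins (-0.51). With any 1 array left out, fewer genes of this list were called, and fewer of all genes too. Txnrd2 was lost under reference-gene scaling (-0.31) and without Vorinostat 2 (-0.47), DMSO 1 (-0.77) or DMSO 2 (-0.58), and Txnrd1 without any 1 of the arrays (-0.31 to -0.25).

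Among the other thioredoxin-fold proteins, several of which act in the endoplasmic reticulum, 5 of 16 rose and 5 fell, with a median log2 change of -0.01. Txndc16 read 8.89 and 8.70 on the vorinostat arrays and 6.65 and 6.69 on the DMSO arrays, and rose by 2.12 (SE 0.10, adjusted p = 0.000225 by limma), the most of the list. The membrane-bound oxidoreductase Tmx4 rose by 0.65 (SE 0.09, adjusted p = 0.00381), while its dimmer probe sets gave 0.30 and -0.02. Txndc15 (-1.38, SE 0.11, adjusted p = 0.000762), which has a role in the primary cilium, and the disulfide isomerase Txndc5 (-0.96, SE 0.08, adjusted p = 0.000780) fell. A dimmer probe set of Txndc15 gave 0.13. The other calls were smaller, at 0.42 to 0.47 for Txndc17, Tmx2 and Txndc9, and at -0.52 to -0.37 for Txnl1, Txnl4b and Tmx1. Both counts were smaller with any 1 array left out, as were those over all genes.

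In the arrestin-fold list, which holds the classical arrestins and the structurally related Vps26 proteins, 4 of 9 genes rose by limma and 0 fell, also 0 at an unadjusted p under 0.05, with a median of 0.18. The beta-arrestin Arrb1, which binds phosphorylated G protein-coupled receptors, read 5.76 and 5.83 on the vorinostat arrays and 4.81 and 4.71 on the DMSO arrays, and rose by 1.04 (SE 0.08, adjusted p = 0.000770 by limma). Rgp1, part of a complex that activates the GTPase Rab6, rose by 0.57 (SE 0.11, adjusted p = 0.0132). It was not called without Vorinostat 1 (0.55), Vorinostat 2 (0.59) or DMSO 2 (0.44). Vps26c (0.42) and the visual arrestin Sag (0.38) were the other calls. Arrdc5, the remaining alpha-arrestin, was near background on all 4 arrays. With any 1 array left out, fewer genes of the list were called, as was so over all genes. Under reference-gene scaling 8 rose, where 62.3% of all genes were called higher.

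The NEDD4-family ligases, the partners that alpha-arrestins recruit through their proline-rich motifs, had 4 of 9 genes lower and 2 higher, with a median of -0.28. Nedd4 itself read 9.78 and 9.88 on the vorinostat arrays and 11.39 and 11.17 on the DMSO arrays, a log2 change of -1.45 (SE 0.11, adjusted p = 0.000592 by limma), and its other probe sets gave -0.97 and -1.26. Smurf1, which targets receptor-regulated SMAD proteins, fell too (-0.90, SE 0.11, adjusted p = 0.00235). Nedd4l, a regulator of epithelial sodium channels, rose by 0.51 (SE 0.08, adjusted p = 0.00780), but not past the threshold without Vorinostat 1 (0.46), DMSO 1 (0.54) or DMSO 2 (0.48). The ligase Wwp2 (-0.72) was called lower as well. Hecw2 was near background on all arrays, so its rise is not given a size, and it was not called with any 1 array left out. Itch, the ligase that degrades the Txnip protein and named after its value was seen, was at -0.40 (SE 0.10, adjusted p = 0.0343). That call was lost with any 1 array left out (-0.49 to -0.30) and under reference-gene scaling (-0.03), and the other Itch probe sets were near background on all 4 arrays. Without any 1 array fewer ligases were called, as was so over all genes.

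Of 16 measured targets of MondoA and ChREBP other than Txnip and Arrdc4, 9 did not pass, 4 rose and 3 fell, with a median of 0.09. These shares are near the 20.9% and 18.9% of all genes called higher and lower. The desaturase Scd1 rose by 0.65 (SE 0.08, adjusted p = 0.00303 by limma; 0.24 at its other probe set), and Acly, which makes cytosolic acetyl-CoA from citrate, by 0.52 (SE 0.08, adjusted p = 0.00692). The fatty acid synthase gene Fasn read 7.77 and 8.07 on the vorinostat arrays and 10.09 and 9.90 on the DMSO arrays, a log2 change of -2.08 (SE 0.13, adjusted p = 0.000409 by limma). The elongase Elovl6 fell as well (-0.83, SE 0.11, adjusted p = 0.00425). Klf10 (0.40), Thrsp (0.36) and the acetyl-CoA carboxylase gene Acaca (-0.47) were the other calls. Acly was not called without Vorinostat 1 (0.47), DMSO 1 (0.51) or DMSO 2 (0.54), nor Elovl6 without DMSO 1 (-0.80) or DMSO 2 (-0.85). Fewer targets were called with any 1 array left out, as was so over all genes. Under reference-gene scaling 12 rose and 2 fell, beside 62.3% and 11.3% of all genes.

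Of 16 measured genes that control Txnip or act with it, 7 rose, 5 fell and 4 did not pass, with a median of 0.17. Ddit4, which encodes REDD1, a stress-induced inhibitor of mTORC1 that forms a complex with Txnip, read 10.62 and 10.79 on the vorinostat arrays and 9.35 and 9.41 on the DMSO arrays, and rose by 1.33 (SE 0.09, adjusted p = 0.000529 by limma). Prkaa2, a catalytic subunit of the AMP-activated kinase that marks Txnip for degradation, rose by 1.12 (SE 0.09, adjusted p = 0.000678), with 1 of the 2 DMSO arrays near background. Ezh2, the histone methyltransferase of the Polycomb complex, changed by -1.12 (SE 0.08, adjusted p = 0.000488) and Nfya, a subunit of the CCAAT-binding factor NF-Y, by -1.22 (SE 0.11, adjusted p = 0.000970). The genes that follow were named after their values were seen. The other NF-Y subunits Nfyb and Nfyc were at -0.58 (SE 0.09) and -0.96 (SE 0.08), with adjusted p = 0.00513 and 0.000956, and Nfyb was lost without Vorinostat 2 (-0.54) or DMSO 2 (-0.54) and under reference-gene scaling (-0.22). Mlx, the shared partner of MondoA and ChREBP, rose by 0.43 (SE 0.09, adjusted p = 0.0159), a call lost with any 1 array left out (0.36 to 0.50). Slc2a1, the glucose transporter whose removal from the surface Txnip promotes, rose by 1.05 (SE 0.09, adjusted p = 0.00101), with 1.02 and 1.00 at its other probe sets. The transcription factor gene Foxo1 (0.89), the cell cycle inhibitor gene Cdkn1b (0.63), the insulin-responsive glucose transporter gene Slc2a4 (0.32) and the kinase gene Map3k5, whose product ASK1 thioredoxin inhibits (-0.35), were the other calls. Fewer genes of the list were called with any 1 array left out, and fewer of all genes too.

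**Figure D5:**
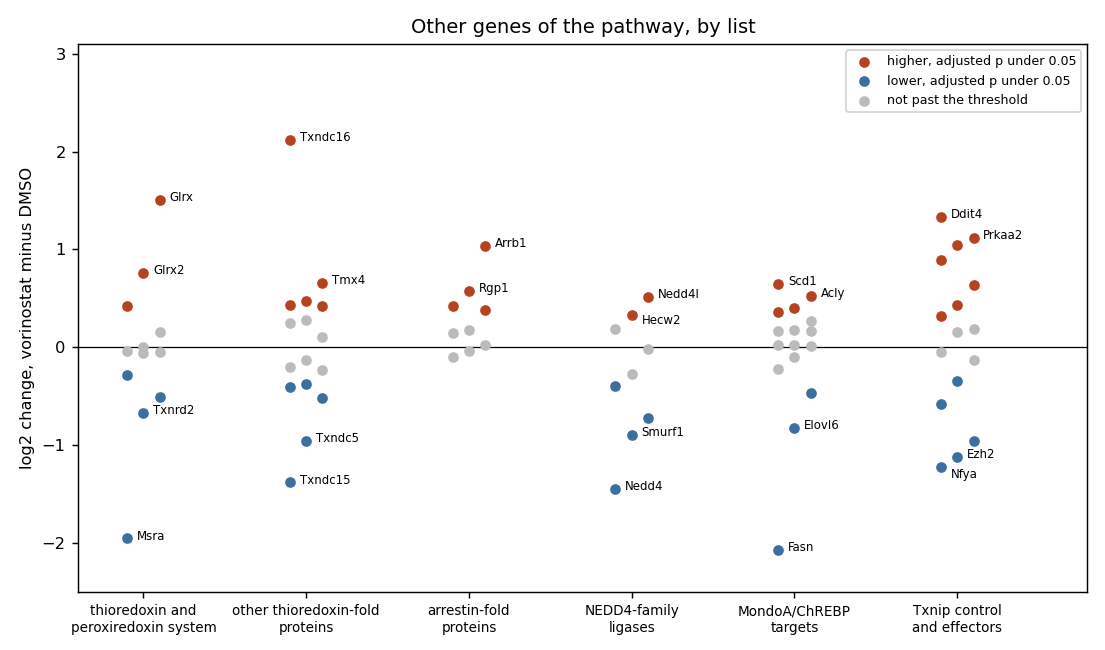
The log2 change (y axis, vorinostat minus DMSO) of each measured gene of the 6 pathway lists (x axis), 1 point per gene by its brightest probe set, coloured by whether limma's adjusted p passed 0.05. Each list holds genes on both sides of 0, from Txndc16 at 2.12 to Fasn at -2.08, and none reaches the 4.47 of Txnip.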

How the data were processed

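The authors deposited 1 log2 expression value per probe set and array, made with RMA and the Transcriptome Analysis Console, versions unstated, per the submitters' processing notes. RMA equalises the arrays' distributions, so a change shared by all transcripts is not visible. The build the authors used was not given in the sources used here, so no coordinates are printed. Of 45101 probe sets, 64 controls were left out of the tests. The platform annotation gave a single symbol to 34945 of the 45037 others, several to 932 and none to 9160. Identifiers of 34741 matched a RefSeq gene table (GRCm38.p6), which updated 0 symbols. A gene is represented by its probe set with the highest mean.

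Limma 3.58.1 in R 4.3.3 (lmFit and eBayes, 3.26 prior degrees of freedom) compared vorinostat with DMSO over all 45037 probe sets, two-sided, with Benjamini-Hochberg adjustment and a threshold of 0.05, and was tested on simulated data. There was no filter on dim probe sets in this comparison. The SE is that of the moderated fit. The number of arrays limits the precision.

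The members, lists and tests were chosen with earlier results of these data known. Named are all members, up to 2 rises and 2 falls per list, and the 5 genes nearest to Txnip. The background margin, the genomic neighbours and the genes marked as such or as other calls were chosen after their values were seen. Of the listed pathway genes, 5 gave no single-symbol probe set and were not analysed here. Alternatives were a filter, 2 scalings, an intensity trend, averaged probe sets, a replicate block and each array left out. Promoter and protein sequences were not used here.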

Additional observations from a re-analysis of the deposited data

How the results depend on the processing

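The 10 alternatives, where they gave a value, kept the sign of every Txnip, Arrdc1, Arrdc2, Arrdc3, Arrdc4 and Txn1 probe set. Mlxip turned to -0.10 without DMSO 2. Txn2 1421557_x_at turned to 0.0083 without Vorinostat 2 and to 0.016 without DMSO 1. Every Txn2 probe set turned positive under reference-gene scaling, with 0.34 at the brightest. Under that scaling, which adds the same amount to each change, Txnip was at 4.83, 8 member genes were higher and 0 lower, and Txnrd1 turned to 0.083. Over all genes 62.3% were then called higher and 11.3% lower. The genes called higher and lower were 7 and 1 of 12 in the thioredoxin and peroxiredoxin system. They were 9 and 2 of 16 in the other thioredoxin-fold proteins and 11 and 3 of 16 in Txnip control and effectors. In the arrestin-fold list they were 8 and 0 of 9, and among NEDD4 ligases 4 and 3 of 9. Among MondoA and ChREBP targets they were 12 and 2 of 16. With any 1 array left out, Txnip ranged from 4.35 to 4.58. Fewer genes were then called in each of the 6 lists, and fewer over all genes as well. Fewer arrays leave fewer residual degrees of freedom. A single NEDD4 ligase was higher (1) when dim probe sets under the median were dropped, with arrays centred on their median, with probe sets averaged and with the replicate block. The replicate block also gave 2 lower in the thioredoxin and peroxiredoxin system and 2 higher in the arrestin-fold list, left Txnrd1, Txnrd2 and Hecw2 uncalled, and gave 3103 higher and 2892 lower over all genes. The deviations of same-numbered arrays had a correlation of -0.0596, and the crossed pairs 0.0596, a mirror value with 2 arrays per group. Whether same-numbered arrays share more than a number is not stated, and this value cannot decide it. The cause of the other shifts was not tested. The filter gave no value for Mlxipl and the dimmer Arrdc4 probe set, and no other background correction could be run on the deposited values, so dim probe sets are limited by signal over background.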

Other observations

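The nearest measured protein-coding genes on either side of each member, by gene order in the RefSeq table, were looked at after the members' values were seen. Of these 18 neighbours, limma called 5 higher and 5 lower and left 8 uncalled, with a median log2 change of 0.00127, beside 20.9% and 18.9% of all genes called higher and lower. Polr3gl, which encodes a subunit of RNA polymerase III and neighbours Txnip, read 6.42 and 6.29 on the vorinostat arrays and 5.23 and 5.28 on the DMSO arrays, and rose by 1.10 (SE 0.09, adjusted p = 0.000713). Hjv, the neighbour of Txnip on the other side, was near background on all 4 arrays. It is among the 5 called higher, and its rise is given no size. Beside Arrdc2, the potassium channel gene Kcnn1 rose by 1.74 (SE 0.21, adjusted p = 0.00282), and beside Arrdc3 the adhesion receptor gene Adgrv1 rose by 1.47 (SE 0.20, adjusted p = 0.00388), with 1 of the 2 DMSO arrays near background. Beside Arrdc4, the orphan nuclear receptor gene Nr2f2 fell (-0.80, SE 0.09, adjusted p = 0.00192). Beside Mlxip, Bcl7a, a subunit of the SWI/SNF remodelling complex, fell (-1.35, SE 0.09, adjusted p = 0.000417), and beside Mlxipl, Tbl2 fell (-1.17, SE 0.08, adjusted p = 0.000554). The neighbours of the members thus held changes in both directions.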
